A study of Enchytraeus crypticus with 9 samples.

Results

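In embryos of the potworm Enchytraeus crypticus, 300 array probes were called well above background on every control array and on no array from cocoons exposed to cadmium. They were dim in the controls, with a median processed signal of 11.1 to 12.6 on the 3 control arrays, and stood at 3.21 to 5.59 on the 6 cadmium arrays. The 300 were chosen from the readout: of the 43750 probes on the array, 25443 were well above background on all 3 control arrays, 588 of these were not on any of the 6 cadmium arrays, and the 300 of the 588 with the highest mean control level were kept. Their loss of detection and their control levels are therefore a description and were not tested.

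Enchytraeus crypticus is a small white soil oligochaete whose eggs develop inside cocoons laid in the soil. Cocoons aged 1 to 2 days were kept for 1 day in LUFA 2.2, a natural standard soil, that was un-spiked (control) or spiked with cadmium at 5 or 16 mg Cd/kg. Each group had 3 samples, each of them RNA from 300 pooled whole cocoons, on 1 Agilent array labelled with the green dye Cy3. The labels give no strain, and all groups shared the soil, the age and the way of labelling. Nothing in the labels says which parents laid the cocoons of a sample, so the spread between arrays is that between pools. In such whole-cocoon RNA, fewer cells that express a transcript and less of it per cell cannot be told apart.

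Cadmium is a toxic metal that binds to thiol groups and takes the place of zinc and calcium in proteins. Animal cells answer it with metallothioneins, small cysteine-rich proteins that hold metals, and with chaperones and antioxidant enzymes. An embryo at this age is dividing and laying down its tissues, and a transcript restricted to few cells is diluted in RNA of the whole cocoon. The files do not pair the probe identifiers with gene names, so no function can be given for any of the 300, and identifiers are kept to a few.

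Whether a spot is called well above background is decided by the scanning software from the spot's signal, the background taken off it and the noise of the array. The arrays differed in all of these. The 75th percentile of the processed signal, a measure of brightness, was 74.4 to 78.1 in controls. At 5 mg Cd/kg it was 38.3, 50.5 and 84.9, while 16 mg Cd/kg gave 48.9, 79.6 and 87.3. The median local background was 30.0, 31.0 and 35.0 in controls. The lower dose had 43.5, 38.0 and 35.0, the higher dose 38.0, 37.0 and 34.5. The dimmest signal called well above background was 4.37 to 6.65 in controls, 7.66 to 8.48 at the lower dose and 5.44 to 6.46 at the higher dose.

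Cadmium arrays were set against control arrays for 3 such array-wide values, with exact two-sided permutation tests whose smallest possible p is 0.0238 for 6 against 3 arrays. The log2 75th percentile was 0.29 lower on average, at 5.95 against 6.24 ± 0.04 (SD, n = 3 control arrays; exact p = 0.476, adjusted over the 3 tests p = 0.714). This difference was within the spread of the cadmium arrays, whose SDs were 0.58 (5 mg) and 0.45 (16 mg), and 3 of the 6 cadmium arrays were brighter than every control array. With the median signal of the array in place of the 75th percentile the difference was -0.61 (exact p = 0.0476). Local background was 5.67 units higher, at 37.67 against 32.00 ± 2.65 (SD, n = 3; exact p = 0.0714, adjusted p = 0.214). The group means were 38.83 ± 4.31 for the lower dose and 36.50 ± 1.80 for the higher (SD, n = 3 each). Spike-in RNAs of known makeup, added at labelling, had a mean log2 signal of 11.12 on the cadmium arrays and 11.15 ± 0.18 on the control arrays (exact p = 0.929, adjusted p = 0.929).

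The 300 probes were dim in the controls. Their median signals there were 12.6, 11.4 and 11.1, where the dimmest detected signals were 5.46, 4.37 and 6.65. Their processed signals had quartiles of 10.9 and 14.7 on control array 1, 9.84 and 13.6 on control array 2, and 9.64 and 13.2 on control array 3. For 276 of the 300, the signal was under 20 on every control array. On the level scale, log2 of the signal minus the 75th percentile of its array, the median member stood at -2.63, -2.71 and -2.74 on the 3 control arrays, so the members were dimmer than most of what the controls expressed. The 25443 probes detected on all control arrays had a median control level of -0.48, against -2.71 for the members.

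On the cadmium arrays the median signal of the members was 3.86, 3.21 and 3.40 at the lower dose, then 3.60, 4.43 and 5.59 at the higher. Each of these medians lay below the dimmest detected signal of its array. The call is made spot by spot, and between 9 and 91 members per cadmium array stood above that dimmest level without being called. The matching levels were -3.31, -3.97 and -4.64, then -3.77, -4.17 and -3.97. The unscaled signal was lowest on 5 mg array 2, and the scaled level was lowest on 5 mg array 3, a bright array by its 75th percentile. Members on 16 mg arrays 2 and 3 came closest to detection: 74 and 39 of the 300 lay more than 2-fold below the dimmest detected level there, against 125 on 16 mg array 1 and 154, 175 and 192 on the 5 mg arrays.

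**Figure D1:**
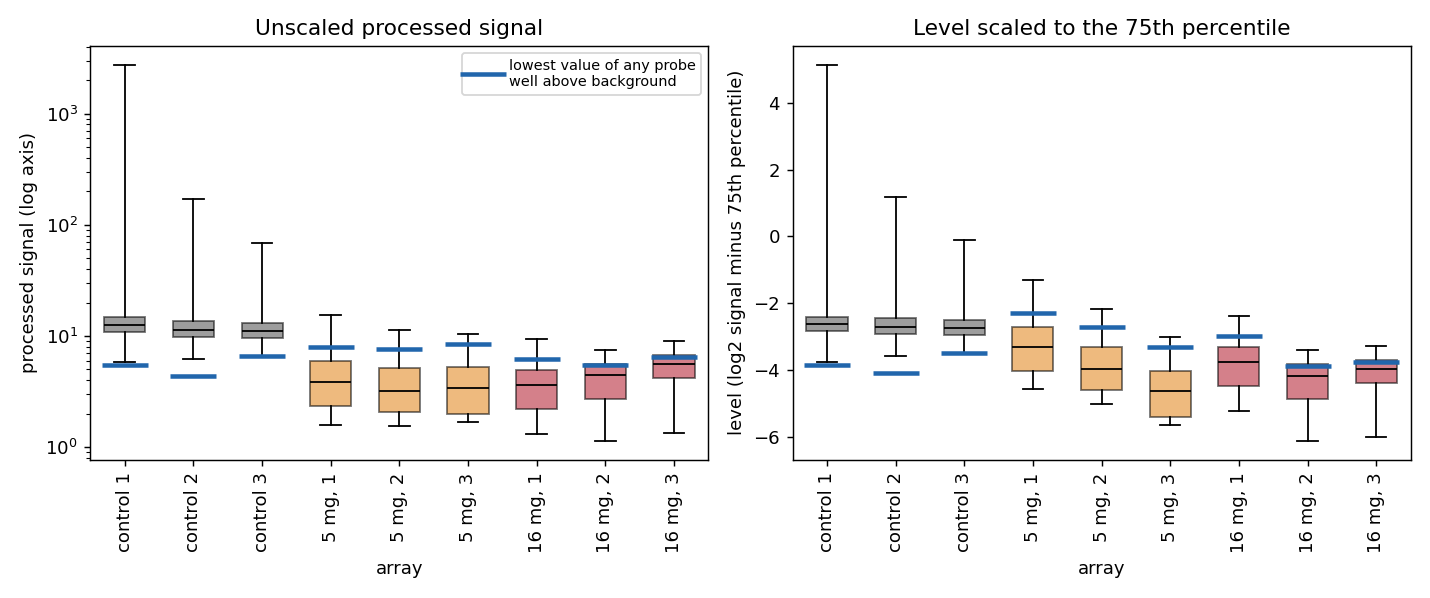
Processed signal (left, log axis) and level scaled to the 75th percentile of the array (right, log2) of the 300 probes on each of the 9 arrays. Boxes span the quartiles with the median as a line, whiskers reach the lowest and highest probe, and blue bars mark the lowest value of any probe well above background on that array; the control boxes lie above their bar, and on every cadmium array the median lies below it.

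A weaker criterion of detection was met by most members on each cadmium array. The software's second flag, a signal that is positive and significantly above background, was met by all 300 on the control arrays. At the lower dose 234, 220 and 220 members met it, at the higher dose 254, 273 and 291. Of the 300, 126 (42.0%) met it on all 6 cadmium arrays and 0 met it on none. On all 6 it was met by 90.2% of the probes in the same range of control level and by 59.4% of all probes. The probes of that range had a higher median control level, -1.62 against -2.71 for the members. Over all probes on the array the flag was met by 80.7% to 86.1% in controls, 70.6% to 75.1% at the lower dose and 76.7% to 86.4% at the higher. Members that failed it had processed signals of at most 4.25, where the software can put a substitute for a value at or below background, so their order carries no meaning.

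The pixels of the spots changed less than the processed signals did. Before any subtraction, the median over members of the spot's pixel median was 47.5, 42.0 and 48.0 in controls. It was 46.0, 41.0 and 43.5 at the lower dose, then 42.0, 43.0 and 42.0 at the higher, so the groups overlapped. Averaged over arrays it was 45.8 ± 3.33 (SD, n = 3) in controls and 42.9 ± 1.74 (SD, n = 6) with cadmium, lower by 2.92 units. The local background around the same spots was 31.8 ± 2.84 (SD, n = 3) and 37.7 ± 3.01 (SD, n = 6), higher by 5.88. The software does not take off exactly this local value: the difference between the spot's pixel median and its background-subtracted signal was 34.4 ± 3.14 in controls (SD, n = 3) and 39.0 ± 2.02 with cadmium (SD, n = 6), higher by 4.55. That difference also holds any gap between the mean and the median of a spot's pixels. At 5 mg Cd/kg it was higher by 5.60 units and the pixel median lower by 2.33. At 16 mg Cd/kg it was higher by 3.50 units and the pixel median lower by 3.50. The 12967 probes with control levels in the members' range and detection on all control arrays had shifts of similar size over all 6 cadmium arrays. Their pixel median went from 58.8 to 55.8, and the difference was higher by 4.68. By dose the order was the reverse of that of the members. At 5 mg Cd/kg the pixel median of the range was lower by 3.83 units, at 16 mg Cd/kg by 2.17. These probes had a higher median control level, -1.62 against -2.71 for the members. Over all 43750 probes the pixel median averaged 49.0 in both and the difference was higher by 4.61. The part of background in the loss of detection was not tested.

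**Figure D2:**
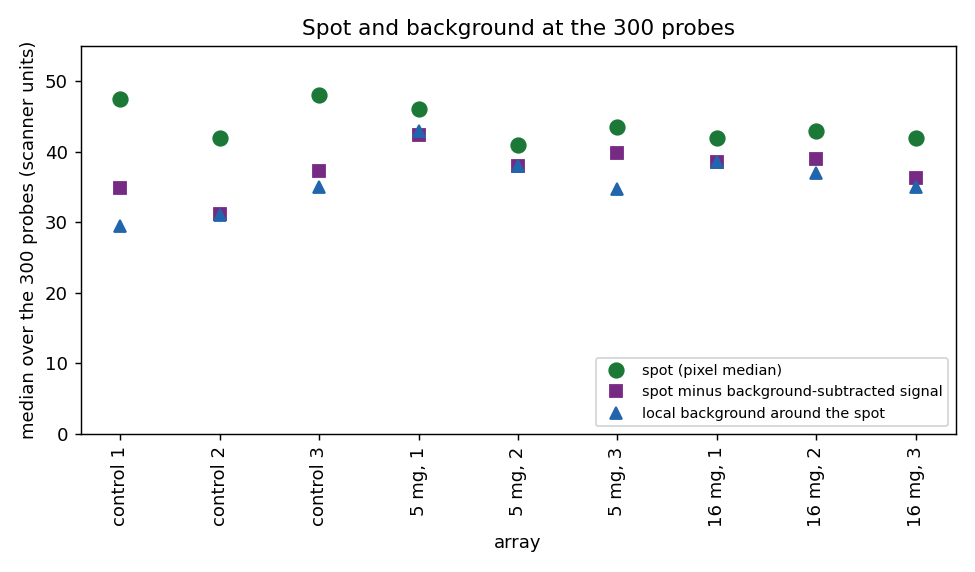
Median over the 300 probes, in scanner units, of the spot's pixel median (circles), of the difference between the spot and its background-subtracted signal (squares) and of the local background (triangles) on each of the 9 arrays. Circles overlap between controls (42.0 to 48.0) and cadmium arrays (41.0 to 46.0), while the gap between circle and square is widest on the control arrays.

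The loss was graded by how bright a probe was in the controls. Of probes with a control level of -3 or less, 28.2% (260 of 922) were not detected on any cadmium array. The share was 11.8% (258 of 2179) for levels over -3 to -2.5, 2.35% (60 of 2549) up to -2 and 0.369% (9 of 2440) up to -1.5. Of the 17353 brighter probes, 1 was lost. The members held 230 probes of the second of these bins, all 60 of the third, all 9 of the fourth and the 1 brighter probe. Single arrays showed the same grading at different heights: at levels over -2.5 to -2, 60.4%, 57.3% and 42.3% of probes were missed at the lower dose, against 40.6%, 13.3% and 7.26% at the higher. The 16 mg arrays 2 and 3 missed the fewest, and the share on 16 mg array 1 was close to that on 5 mg array 3.

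**Figure D3:**
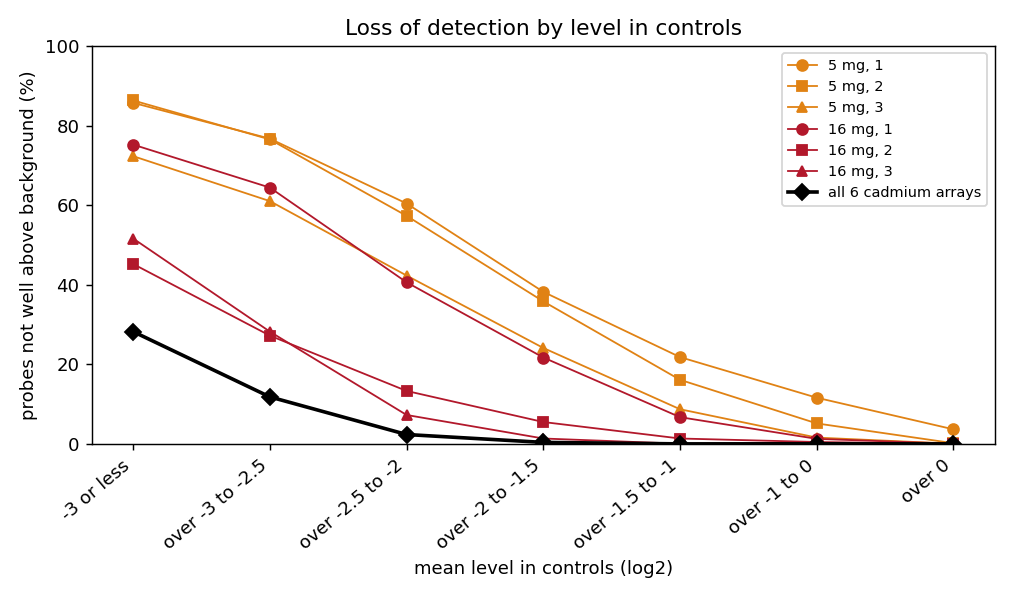
Share of probes not well above background (%) on each cadmium array and on all 6 together, by mean control level (log2), among probes well above background on all 3 control arrays. On each array the share falls from the dimmest bin up to levels of -1, and the share missed on all 6 arrays is 28.2% in the dimmest bin and 0.369% at levels over -2 to -1.5.

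In the range of control level that the members span, 12967 probes were detected on all control arrays. The 300 members are 2.31% of them, the same share as the 588 among all 25443. The top of this range, -0.14, rests on 1 spot marked as non-uniform, and the next member stood at -1.56. The probes of the range had a median control level of -1.62, against -2.71 for the members. Nothing is therefore read from the equal shares. The other probes of the range were detected on 1 cadmium array (614), 2 (1018), 3 (1075), 4 (1331), 5 (2651) or all 6 (5978, or 46.1%). The members stand at the end of this run of counts with no gap. The range as a whole was also lower in unscaled signal, going from a median of 24.8 ± 1.33 in controls (SD, n = 3) to 14.6 ± 3.27 at the lower dose and 18.7 ± 5.19 at the higher (SD, n = 3 each). The median member went from 11.7 ± 0.811 to 3.49 ± 0.331 and 4.54 ± 1.00 (SD, n = 3 each).

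Both doses were needed for membership, and they contributed unequally. At 5 mg Cd/kg 2632 probes were lost in this sense and at 16 mg Cd/kg 676, so the 588 shared ones are 22.3% of the first list and 87.0% of the second. Both lists share the 3 control arrays. The 2044 probes lost at 5 mg alone had a higher median control level (-2.59) than the 588 (-2.95), and the 88 lost at 16 mg alone stood between them (-2.84). The opposite pattern, detection on all 6 cadmium arrays and on no control array, was found for 4 probes. These counts use each array's own calls. With 1 limit for all arrays, the level of -2.28 that is the highest of the arrays' limits, 318 probes were lost and 67 gained, and 6 of the 300 members were among the lost. Only 29 of the 300 had a mean control level above this limit, so most could not count as lost by it. With 1 limit of unscaled signal, 8.48, there were 450 lost and 10 gained, and 218 members were among the lost. The cut at 300 fell in a dense part of the list: the last 3 ranks inside had mean control levels of -2.950, -2.952 and -2.954, and the 3 just outside -2.956, -2.956 and -2.957. The 288 probes ranked below the cut had control levels down to -3.66.

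How far the members can be said to have dropped depends on where detection ends on the cadmium arrays. A lower bound on control over cadmium was taken for each member as its mean control level minus, per cadmium array, the higher of its own level and that of the dimmest probe that still counted as well above background. At 16 mg Cd/kg the bound was above 0 for all 300 members, with a median of 0.77 on the log2 scale (at least 1.71-fold) and a range of 0.47 to 1.85, and it passed 2-fold for 65. The choice of members all but fixed that sign. All 300 mean control levels lay above the dimmest detected level of each 16 mg array, where the rule required no call. The bounds are therefore a description and not a test of a drop. At 5 mg Cd/kg the bound was above 0 for 176 members, with a median of 0.05 and a range of -0.26 to 1.21, and it passed 2-fold for 3. No fold is given for the other 124. Leaving out the third array at the lower dose gave a median bound there of -0.23, and leaving out the first gave 0.31. With levels scaled to the array median it was -0.28, and with no scaling 0.52.

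**Figure D4:**
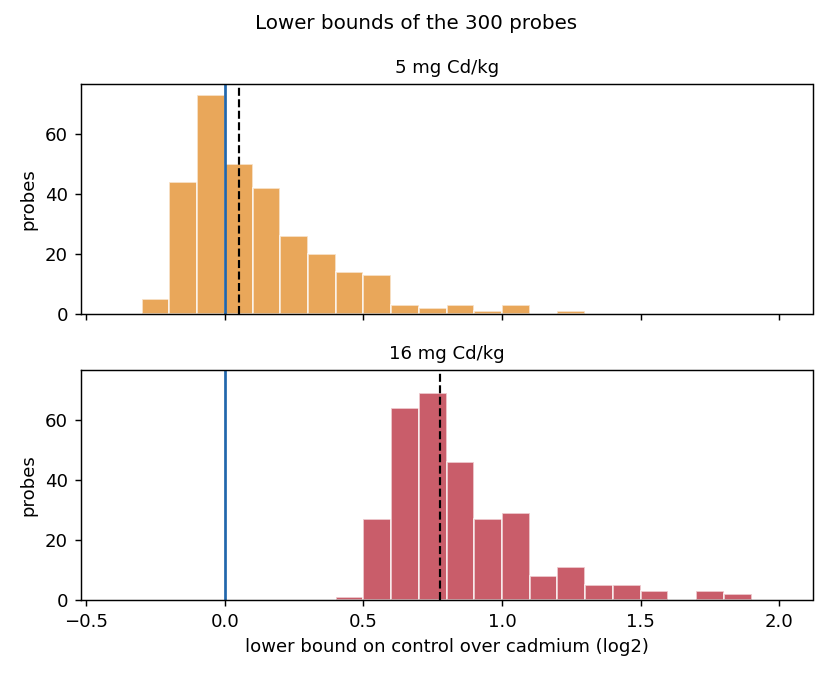
Number of the 300 probes by lower bound on control over cadmium (log2, bins of 0.1) at 5 mg Cd/kg (top) and 16 mg Cd/kg (bottom), with 0 as a solid line and the median as a dashed line. At 16 mg all 300 lie above 0 with a median of 0.77, and at 5 mg the distribution straddles 0 with a median of 0.05.

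The limits behind these bounds differed between arrays. The dimmest detected level was -2.28, -2.72 and -3.32 at the lower dose, then -2.97, -3.87 and -3.76 at the higher. Had a member kept its mean control level, it would have stood above that limit in 29, 154 and 300 of 300 cases at the lower dose, and in 300 of 300 on each array of the higher. On all 6 arrays together this held for 29 members. Among the 12967 probes in the same range of control level, whose median control level was higher, it held for 9859. With no scaling between arrays, or with scaling on the spike-ins, it held for all 300 members. The count of 29 rested on 5 mg array 1, without which it was 154. That array was the only 1 on its slide and the only 1 with its recorded scan time. Control arrays 1 and 2 also each had a recorded scan time of their own, so of the controls the third alone shared its time with cadmium arrays.

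The contig with the highest control level, contig12395, had processed signals of 29.3, 27.1 and 21.3 in controls. They were 7.17, 2.77 and 2.55 at the lower dose, then 7.06, 5.91 and 6.84 at the higher. Unscaled, every control value was more than 2-fold above every cadmium value. On the level scale its closest values were -1.81 on control array 3 and -2.42 on 5 mg array 1. Its level was -1.56 ± 0.22 in controls (SD, n = 3), at least 2.32-fold above 5 mg Cd/kg and at least 3.60-fold above 16 mg Cd/kg. It was chosen by its loss on these arrays, so the values are a description with no test. These bounds were the largest of the 300 at each dose.

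The next largest at both doses belonged to contig20566, which had signals of 27.6, 16.9 and 26.4 in controls. They were 4.65, 6.50 and 5.52 at the lower dose, then 6.07, 3.12 and 6.47 at the higher. Again no cadmium array reached a control array. The control level of -1.71 ± 0.37 (SD, n = 3) was at least 2.09-fold above 5 mg Cd/kg and at least 3.53-fold above 16 mg Cd/kg. The remaining member with a bound over 2-fold at both doses ranked 4 in control level, with at least 2.01-fold and 3.39-fold.

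The top rank rested on 1 spot. GYUW2K402FV2IT had signals of 2753, 10.1 and 11.6 in controls. They were 5.60, 2.28 and 2.10 at the lower dose, then 4.54, 5.08 and 2.90 at the higher. Its spot on control array 1 was marked by the software as non-uniform, with a pixel median of 60.0, and the other 2 control arrays put it among the dim members. With that spot left out its bound at 5 mg Cd/kg was under 1-fold and at 16 mg Cd/kg at least 1.67-fold. Chosen after their values were seen, 6 members had 1 control array more than 2-fold above the next, and 3 of these were among the 10 highest ranks. Ranking by the median of the control levels in place of their mean kept 273 of the 300.

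In the limma fit over all 9 arrays, 299 members were fitted lower at 5 mg and 300 at 16 mg Cd/kg, which the rule all but fixes. At 5 mg Cd/kg 92 of the 300 were called lower at an adjusted p under 0.05, beside 5.55% of the 25915 tested probes, and 197 had an unadjusted p under 0.05 with the lower sign, beside 18.3%. At 16 mg Cd/kg 0 were called, beside 0.0% of all tested probes, while 229 members and 14.4% of all probes were lower at an unadjusted p under 0.05. Fitted with 16 mg and control arrays alone, limma called 273 members lower and 22.4% of all tested probes. The median fitted log2 difference of the members was -1.30 at 5 mg and -1.40 at 16 mg Cd/kg, and over all tested probes -0.25 and -0.07. Because members were chosen by loss on these arrays and none was called well above background on a cadmium array, nothing is read from these counts. With normexp background correction and quantile scaling the count at 5 mg Cd/kg was 1, beside 3.71% of all probes, and the members' median differences were -0.08 and -0.09. This setting adds an offset of 50, while the median member spot stood only 3.0 to 18.0 units over local background per array. Such an offset draws log2 differences of dim probes towards 0, so the size of these differences cannot show whether the members dropped less. At 5 mg Cd/kg in this setting 12.7% of the members had an unadjusted limma p under 0.05, beside 31.1% of all probes. Why fewer members were called was not tested. In the limma fit without normexp the count at 5 mg Cd/kg was 0, and that over all probes was 0 too, when any single control, or the third array of the lower dose, was left out. Without the first array of that dose it was 216, beside 21.8%.

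All 3 arrays at 5 mg Cd/kg lay below every control array for 189 members (20.8% of all tested probes), and at 16 mg Cd/kg for 274 (30.5%). For 176 members all 6 cadmium arrays did (15.8%). So 124 members, although never detected with cadmium, had at least 1 cadmium level that reached into the range of their controls. Between the doses 0 members were called at an adjusted p under 0.05, beside 0.104% of all probes, and 12 (4.0%) had an unadjusted p under 0.05, beside 5.5% of all probes. No fold between doses is given, since no member was called well above background at either dose.

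The arrays lay on 3 slides. Within slide 1, with controls 1 and 3 beside the second 5 mg and the first 16 mg array, the level was below control for 290 members at 5 mg and 293 at 16 mg Cd/kg, with median differences of -1.37 and -1.12. Within slide 2, with control 2 beside the third 5 mg array and 16 mg arrays 2 and 3, it was below control for all 300 at both doses, with medians of -1.99 and -1.56. The median bounds were 0 and 0.24 on slide 1 and 0.60 and 1.06 on slide 2. On slide 2 the control array was scanned at another recorded time than the cadmium arrays, so treatment and scan time cannot be told apart there. The 1 recorded time with both kinds of array held control 3, the second 5 mg array and the first 16 mg array. Within it 286 and 280 members were below control, with median differences of -1.30 and -1.07 and median bounds of -0.02 and 0.22. These are the arrays that chose the members.

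The kind of identifier is a property that the rule did not use. Identifiers on this array are either contigs, which are sequences assembled from several reads, or carry the form of single sequencing reads. Of the 300 members 214 (71.3%) were contigs and 86 (28.7%) reads, against 53.0% contigs among all 43750 probes and 56.5% in the same range of control level. The share fell with every further cadmium array on which a probe was detected, from 71.3% at 0 arrays through 70.2%, 63.8%, 62.8%, 59.3% and 53.1% to 52.8% at all 6. Control level differs along this series too, with medians rising from -2.71 to -1.01. Within levels over -3 to -2.5 the share was 74.8% of 258 probes lost at both doses, 56.0% of all 2179 and 35.0% of the 163 detected on all 6 cadmium arrays. At levels over -2.5 to -2 it was 63.3% of 60 lost probes, 57.0% of all 2549 and 44.5% of the 465 detected on all 6.

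**Figure D5:**
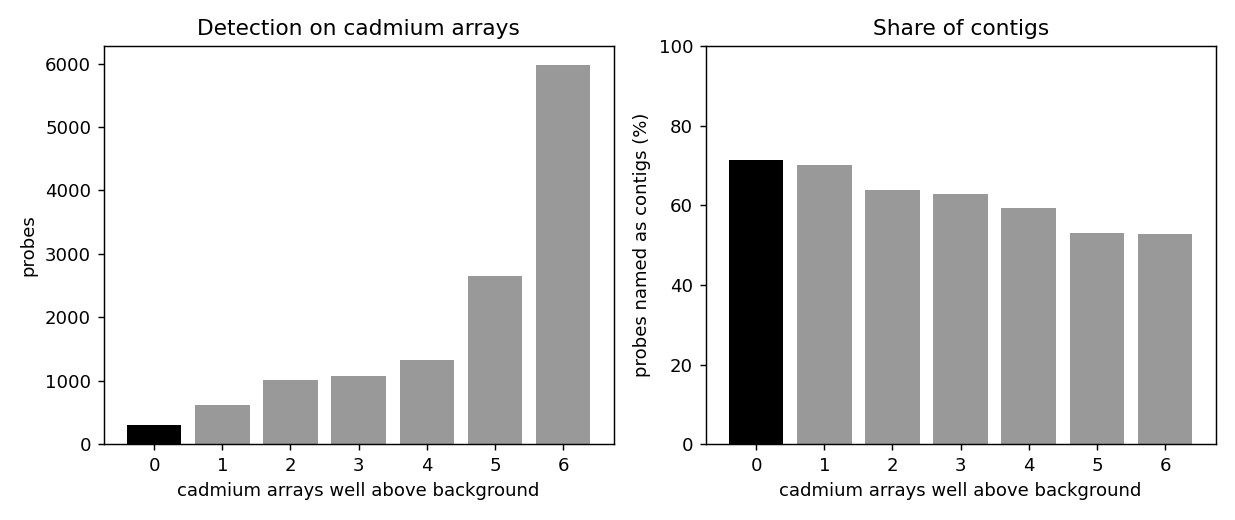
Probes detected on all 3 control arrays, in the control level range of the members, by the number of cadmium arrays on which they were well above background: their number (left) and the share of them named as contigs (right, %). The members are the black bars at 0 arrays, 300 probes of which 71.3% are contigs, against 52.8% of the 5978 probes detected on all 6.

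Contig members and read members had similar medians of level, a comparison that was not tested. Their median control levels were -2.72 and -2.69, at 5 mg Cd/kg -3.93 and -4.02, and at 16 mg Cd/kg -4.10 and -4.11. Of the 86 read-named members, 56 had identifiers that begin with GYUW2K401 and 30 that begin with GYUW2K402, while the range of the same control level held 2865 and 2780. On the array surface the members were spread widely: 4 bands of rows held 26.0%, 21.0%, 23.0% and 30.0% of them, with 24.7% to 25.3% of all probes in each, and 3 bands of columns held 36.3%, 29.3% and 34.3%, with 32.7% to 33.9% of all probes. The median local background at member spots differed by at most 0.5 units from that of all spots on every array. Control levels of a member varied with a median SD of 0.25, against 0.21 in the same range, whose median control level was higher.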

How the data were processed

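Per the file headers, each deposited file is the Feature Extraction 10.7.3.1 output of 1 one-colour Agilent array, with intensity values after background subtraction with spatial detrending and no scaling between arrays. The same deposited files give the pixel medians of spot and local background as intensities and the detection flags. The deposited series table held these intensities again, within 0.497%. No step between arrays was recorded.

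A level is the log2 processed signal less the log2 75th percentile that the 43750 non-control probes have on the same array. The test took the 25915 probes detected on every array of some group and was run with limma 3.58.1 (R 4.3.3) over all 9 arrays, with Benjamini-Hochberg adjustment and outlier spots left out. Scripts were tested on simulated data. Array-wide values were compared with exact permutation tests (scipy 1.17.1). All p-values rest on how far such pools vary, which may be technical. Alternatives covered scaling, filter, background correction, slide, array weights, replicate block, the limit of detection and each array left out. The normexp alternative (offset 50) used the pixel median, since the planned mean signal was not in the files used here.

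The members and lists were chosen with earlier results of these data known. Identifiers named are the 2 members of highest control level and the 2 with the largest bound at each dose. The 1417 control features entered no test over probes.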

Additional observations from a re-analysis of the deposited data

How the results depend on the processing

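Array brightness differed by -0.61 with the array median (exact p = 0.0476) and by -0.39 to -0.15 with single arrays left out, and local background by 4.5 to 7.17. The spike-in difference turned to 0.13 with the median over spike-ins, to 0.07 without control 1, 0.03 without the first 5 mg and 0.02 without the second 16 mg array (range -0.13 to 0.07). The 588 lost probes became 113 by the weaker flag (0 of them members), 318 with a common limit of level (6 members) and 609 to 1171 with 1 array left out, the highest without control 3, with 899 and 1029 without the second and the third 16 mg array. Of the members called lower at 5 mg Cd/kg, 92 became 33 with only the 2 groups fitted (in brackets here and below, the share of all tested probes called lower, 1.55%), 209 with slide as a fixed block (20.7%), 143 as a random block (10.9%), 0 without the filter (0.0%), 1 with normexp and quantile (3.71%) and 227 with array weights (21.3%). With 1 array left out the count was 0 to 216. It was 216 without the first 5 mg array (21.8%) and 44 without the first 16 mg array (1.61%). At 16 mg Cd/kg 0 became 273 with 2 groups (22.4%), 4 with slide fixed (0.0232%), 45 with median scaling (0.749%) and 268 with array weights (22.2%). With 1 array left out the count there was 0 to 181, the highest without the first 5 mg array (9.52%). Between doses the range was 0 to 1. The median bound at 5 mg Cd/kg was 0.60 within slide 2, -0.28 with median scaling, -0.10 with the 1st percentile as limit, 0.43 with spike-in and 0.52 with no scaling, and -0.23 to 0.31 with 1 array left out. At 16 mg Cd/kg it was 0.24 within slide 1, 0.22 within 1 scan time (chosen after seeing the data), 0.47 to 0.93 over the scalings and 0.61 to 1.05 with 1 array left out. The 29 members whose control level passed every limit became 300 with spike-in scaling, 300 with no scaling, 14 with the 1st percentile as limit and 22 to 154 with 1 array left out. The cause of these changes was not tested. With normexp, whose offset of 50 draws log2 differences of dim probes towards 0, the size of the members' differences cannot show a smaller drop.

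With the replicate block 66 members (2.79%) were called lower at the lower dose and 0 at the higher. Deviations of same-numbered arrays correlated from -0.10 to 0.33, so the numbers were not taken to pair the samples. The low signals of the members over background, and 3 arrays in a group, limit the precision.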
